A study of Mus musculus with 56 samples.

Results

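F10-open and F10-closed control lines were compared as 8 clones against 8, chosen by the accessibility of the F10 locus among 24 control lines grown in stem cell factor (SCF), so that the comparison used 16 of the 56 libraries of the series. The measure that chose them was the CPM (counts scaled to a common library total) summed over the 12 peaks centred within 10 kb of the F10 transcription start site (TSS). The 8 lines with the most CPM were called open and the 8 with the least were called closed, and the 8 lines of ranks 9 to 16 were called middle. Bulk ATAC-seq, in which the transposase Tn5 cuts accessible DNA, had been run on 1000 cells of each line.

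All lines were clones of mouse bone marrow granulocyte-monocyte progenitors (GMP) from a Tet2 fl/fl mouse, immortalised with retroviral HA-ER-Hoxb8 and kept in 0.5 µM beta-estradiol and about 100 ng/ml SCF. The open and the closed control lines therefore shared genotype and treatment: both carried the floxed Tet2 allele and had received GFP from an integrase-defective lentivirus at a multiplicity of infection of 200. Each clone also had a Tet2 KO sister line, which had received Cre from the same kind of vector and which took no part in the choice. The 4 GM-CSF clones (10 ng/ml) served only as a point of comparison. The mice of the study were young adults. Each line is 1 clone, described as coming from 1 mouse, although lines of male and female mice are also mentioned, so whether the spread behind the p-values lies within or between animals is not settled. In bulk libraries fewer cells with an open locus cannot be told apart from less accessibility per cell.

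F10 encodes coagulation factor X, a vitamin K-dependent serine protease of plasma. Made mostly by the liver, it is activated by factor VII with tissue factor or by factor IX with factor VIII, and with factor V it turns prothrombin into thrombin. Monocytes and macrophages can also make it, and proteases of this pathway act on cells through protease-activated receptors. A promoter that is open in ATAC-seq can precede or accompany transcription, so the values below are accessibility, not expression.

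F10 lies on the plus strand of chromosome 8 (ENSMUSG00000031444.16, mm10, 13037308 to 13056676), downstream of F7, which encodes factor VII. The sequences of the promoter and of 3 peaks are shown because these held the most counts of the window over the 24 control lines. Their shares ran from 11.9% for the promoter peak to 22.3% for the peak at -9483 bases. The promoter is from RefSeq (GRCm38.p6, which has the coordinates of mm10), and the peaks are their first 300 bases in the same assembly, all on the plus strand, 5′ to 3′. Capitals mark matches, on either strand, to any of the 21 motifs used further on.
F10 promoter, chr8:13037058-13037357: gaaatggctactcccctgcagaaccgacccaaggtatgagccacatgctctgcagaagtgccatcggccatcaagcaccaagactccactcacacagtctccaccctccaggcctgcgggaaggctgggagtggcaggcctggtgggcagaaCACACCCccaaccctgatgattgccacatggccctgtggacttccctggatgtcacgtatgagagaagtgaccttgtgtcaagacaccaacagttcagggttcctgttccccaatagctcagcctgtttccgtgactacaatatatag
Peak at -9483 bases from the F10 TSS, in an F7 intron, chr8:13027675-13027974: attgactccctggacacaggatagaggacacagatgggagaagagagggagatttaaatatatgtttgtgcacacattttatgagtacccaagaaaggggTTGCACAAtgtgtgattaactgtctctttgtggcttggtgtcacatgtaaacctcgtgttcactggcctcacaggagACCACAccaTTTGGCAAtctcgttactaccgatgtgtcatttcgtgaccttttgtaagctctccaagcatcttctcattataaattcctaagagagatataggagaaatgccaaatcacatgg
Peak 1948 bases downstream, in an F10 intron, chr8:13039106-13039405: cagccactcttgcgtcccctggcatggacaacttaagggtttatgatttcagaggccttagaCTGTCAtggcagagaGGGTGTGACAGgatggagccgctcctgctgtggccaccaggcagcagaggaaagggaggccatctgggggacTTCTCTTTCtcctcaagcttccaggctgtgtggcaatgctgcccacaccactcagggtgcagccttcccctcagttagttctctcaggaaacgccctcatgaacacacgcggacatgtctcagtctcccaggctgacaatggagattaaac
Peak 4199 bases downstream, in an F10 intron, chr8:13041357-13041656: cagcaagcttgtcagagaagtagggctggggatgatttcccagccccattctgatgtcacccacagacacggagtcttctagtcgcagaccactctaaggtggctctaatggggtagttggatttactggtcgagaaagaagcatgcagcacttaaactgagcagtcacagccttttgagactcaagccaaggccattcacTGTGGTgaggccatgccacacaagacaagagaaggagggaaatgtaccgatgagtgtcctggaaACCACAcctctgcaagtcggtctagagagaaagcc
The promoter held 1 match, to the KLF motif CACACCC, which 7.95% of 32851 RefSeq promoters of this length also held. The upstream peak held 2 matches to the C/EBP motif TTGCNNAA and 1 to the RUNX motif TGTGGT, present in 13.7% and 29.5% of distal peaks. The peak 1948 bases downstream held 2 matches to the MEIS motif TGACAG, 1 of which overlapped a KLF match, and 1 to the IRF motif GAAANNGAA. The peak 4199 bases downstream held 2 RUNX matches. These are matches of letters and not evidence of binding.

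Total counts ranged from 207267 to 692383 in open control lines and from 102302 to 566039 in closed control lines, and the closed group held the 2 shallowest controls, clones 4 and 27. The means were 420847 ± 168495 in open and 336732 ± 182874 in closed lines (SD, n = 8 each, exact permutation p = 0.349, two-sided). The share of counts in promoter peaks averaged 45.2% ± 3.16 in open and 46.9% ± 4.06 in closed lines (exact p = 0.350). The shares on chromosomes X, 1 and 8 differed by 0.0599, 0.240 and -0.0253 percentage points, open minus closed (exact p = 0.434, 0.238 and 0.464). None of these 5 measures passed after adjustment over them (adjusted p = 0.464 for each), nor in the KO sister lines (0.739 for each). The share on chromosome X separated clones 1 to 18 (1.47% to 1.67% in 17 control lines) from clones 23 to 29 (1.13% to 1.37% in 7), without overlap, and did so in KO lines too (1.52% to 1.63% and 1.22% to 1.40%). The open group held 6 lines of clones 1 to 18 and 2 of clones 23 to 29, and the closed group 5 and 3, so comparisons are also given within clones 1 to 18 where that matters. The GMP markers Kit, Cd34, Mpo, Elane, Cebpa and Spi1 had counts in all 16 lines.

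The names open and closed describe a rank and not separate levels. F10 had 50.6, 60.8 and 67.0 CPM in open control lines (lowest, median and highest), against 8.69, 43.5 and 46.7 CPM in closed control lines. These CPM rest on 12 to 35 counts per open line and on 1 to 26 counts per closed line. The lines beside the limits were almost level: clone 26, the last open line, had 50.6 CPM and clone 18, just outside, 49.9 CPM, while clone 3, the first closed line, had 46.7 CPM and clone 25, just outside, 46.8 CPM. The groups cannot overlap by construction, so no test is given.

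Counting error covered most of this range. In the ranked plot of F10 levels, the exact 95% Poisson interval of every open line overlapped that of every closed line (64 of 64 pairs). The highest lower bound of an open line was 45.6 CPM, and the lowest upper bound of a closed line was 48.4 CPM. The intervals of 23 of the 24 control lines held the rate of all lines together, 50.4 CPM, and clone 27, with 1 count (8.69 CPM, interval 0.220 to 48.4), was the exception. The chi-square of the 24 counts around that rate was 15.3 on 23 degrees of freedom, a ratio of 0.667, where counting alone gives about 1. Intervals cover counting error only.

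**Figure D1:**
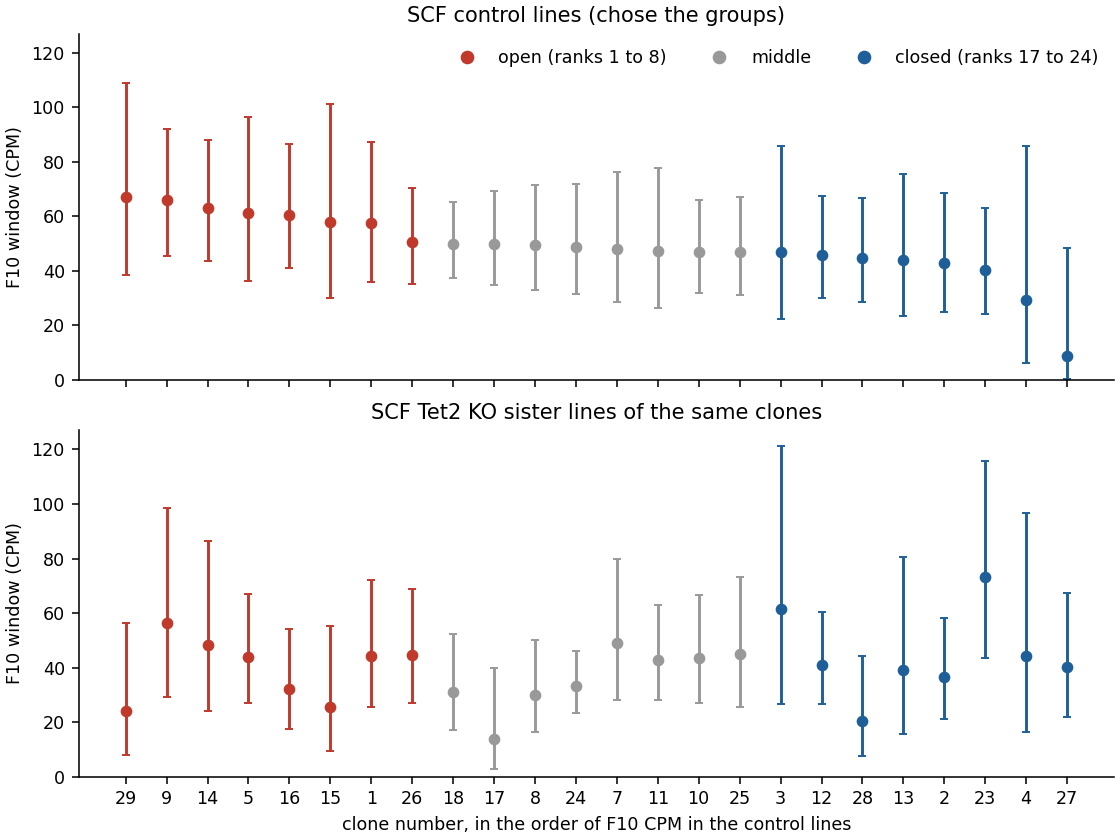
F10 level in CPM (y axis) of each SCF control line (top) and of the Tet2 KO sister line of the same clone (bottom), with clones in the order of their control level (x axis). Points are single libraries and bars are exact 95% Poisson intervals. Control levels fall from 67.0 to 8.69 CPM along the axis that they define, while KO levels follow no such order.

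Pooled over lines, F10 had 59.7 CPM in open control lines (201 counts, interval 51.7 to 68.5) and 41.9 CPM in closed control lines (113 counts, 34.6 to 50.4), a ratio of 1.42. Without clones 4 and 27 the closed lines had 44.0 CPM (109 counts, 36.1 to 53.1). The middle lines lay between, at 48.5 CPM. All 24 SCF control lines were below the 4 GM-CSF control lines, which had 130.6, 181.3, 125.1 and 108.2 CPM in clones 19 to 22. Except for clone 19, the sample titles of these GM-CSF clones name SCF. Their treatment labels name GM-CSF and were followed here.

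How many members were kept depended on the ranking. Ranking by CPM scaled with TMM kept 7 of 8 open and 6 of 8 closed lines. Ranking by the peaks within 1 kb of the F10 TSS, which held 0 to 6 counts in these 16 lines, kept 3 of 8 open and 3 of 8 closed lines, and it moved 2 open lines to the closed side and 3 closed lines to the open side.

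The KO sister lines, which had no part in the ranking, did not keep its order. F10 had 24.1, 44.2 and 56.4 CPM in KO lines of open clones (lowest, median and highest), against 20.4, 40.6 and 73.2 CPM in KO lines of closed clones. The range of the closed clones enclosed that of the open clones, and the highest and second highest KO levels, 73.2 CPM in clone 23 and 61.5 CPM in clone 3, were both in closed clones. The means were 39.9 ± 11.4 and 44.5 ± 16.1 CPM (SD, n = 8 each), a difference of -4.61 CPM (exact permutation p = 0.521, two-sided). With the upper and lower 12 clones it was -9.12 CPM (exact permutation p = 0.0875). The pooled ratio, open over closed, was 0.961.

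Across the 24 clones, the F10 level of the control line and that of the KO line showed no relation that could be told from 0. Pearson's r was -0.11 (permutation p = 0.595, adjusted over 4 relations 0.793) and Spearman's rho was -0.10 (p = 0.636, adjusted 0.835). Without clones 27 and 4, the 2 farthest from the median, r was -0.14 (p = 0.537). Within clones 1 to 18 r was 0.05 (n = 17, permutation p = 0.843), and within clones 23 to 29 it was -0.27 (n = 7, permutation p = 0.517). Of the 8 open clones, 4 were among the upper 8 KO levels and 3 among the lower 8, and of the 8 closed clones 2 and 1 were. The 24 KO counts scattered around their common rate of 39.1 CPM with a chi-square of 25.6 on 23 degrees of freedom, a ratio of 1.11.

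KO lines lay below their control line in 8 of 8 open, 7 of 8 middle and 4 of 8 closed clones. The control level chose these clones, so the gradient between groups follows from the choice, and nothing is read from it. Over all 24 clones, where no choice was made, the KO line lay below its control line in 19. Pooled over these 24, F10 had 50.4 CPM in control lines (interval 46.2 to 54.8) and 39.1 CPM in KO lines (35.1 to 43.4). This difference between control and KO lines was not tested.

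Peak by peak, the F10 window had few counts. In control lines, open exceeded closed in 11 of 12 peaks by pooled CPM, as the ranking on their sum would give, and in KO sister lines in 5 of 12. The strongest peak, at -9483 bases from the TSS and shown above, had 14.0 CPM in open and 9.28 CPM in closed control lines (47 and 25 counts), but 6.53 CPM in open and 7.89 CPM in closed KO lines. The promoter peak had 7.43 CPM in open and 5.20 CPM in closed control lines (25 and 14 counts), and 6.53 and 4.98 CPM in the corresponding KO lines. The intronic peak with 2 RUNX matches was nearly level between control groups, with 5.05 CPM in open and 4.83 CPM in closed lines.

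The window of the GM-CSF control lines had another shape. Their promoter peak had 46.9 CPM (71 counts), and the peak with 2 RUNX matches had 0.661 CPM (1 count). The strongest peak of the SCF lines had 15.2 CPM there. Among SCF lines the promoter peak held 25 of 201 counts in open and 14 of 113 counts in closed control lines, against 71 of 182 counts in GM-CSF control lines.

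**Figure D2:**
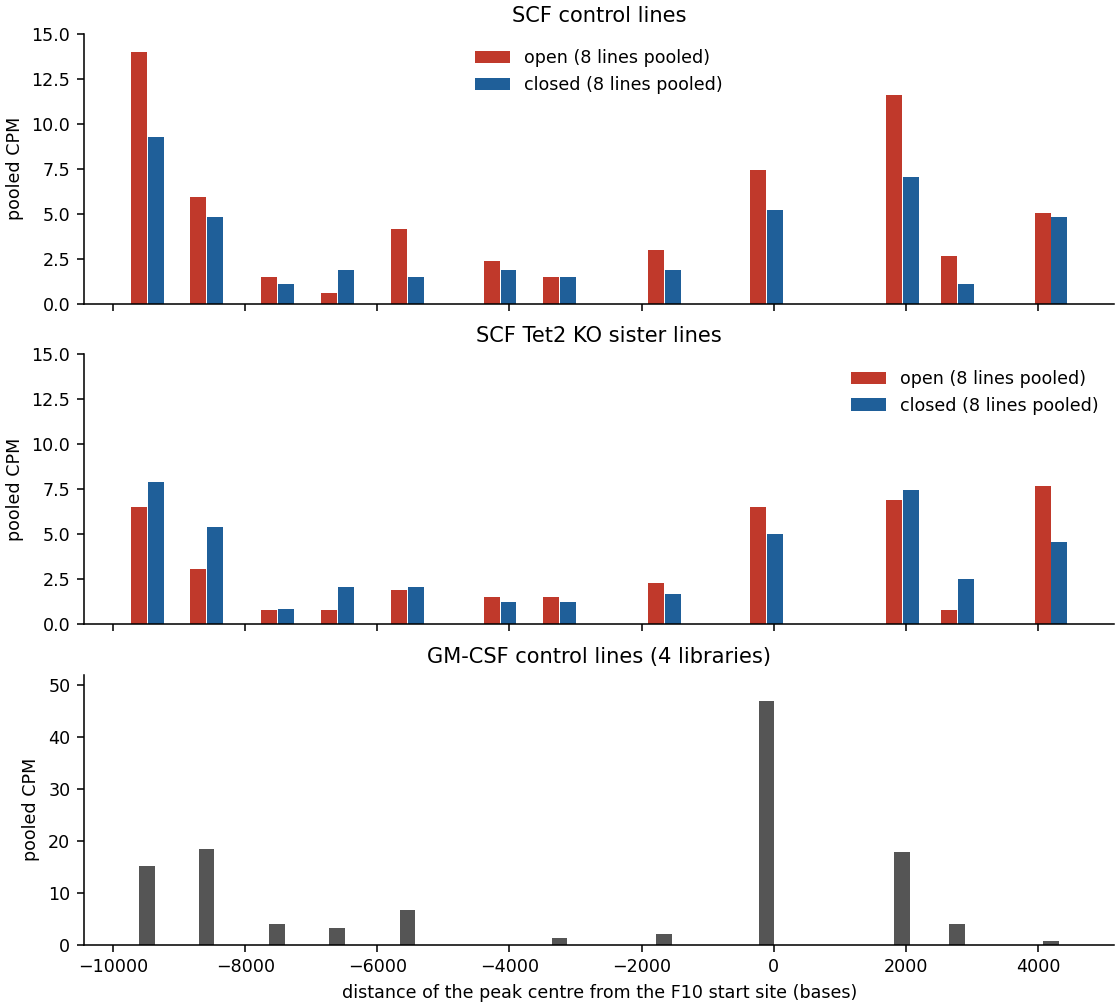
Pooled CPM (y axis) of the 12 peaks of the F10 window by distance of the peak centre from the F10 TSS in bases (x axis), in open and closed SCF control lines, in their KO sister lines and in GM-CSF control lines, whose y axis is longer. The promoter peak reached 46.9 CPM in GM-CSF control lines, against 7.43 CPM in open and 5.20 CPM in closed SCF control lines.

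Neighbouring genes were kept out of the tests within 0.5 Mb around F10 and are described here. F7 shares 8 of its 13 peaks with the F10 window, and had 40.1 CPM in open and 31.2 CPM in closed control lines, pooled. Proz, which encodes protein Z, a cofactor for the inhibition of factor Xa, shares none and had 10.1 and 9.28 CPM. Cul4a and Pcid2, which share their 5 peaks, had 114 CPM in open and 120 CPM in closed lines, and Lamp1, a lysosomal membrane protein gene, had 39.2 and 39.3 CPM.

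No other gene of blood coagulation passed the test, as no locus did. The 3 lists used here held coagulation proteases and cofactors, anticoagulant and fibrinolysis genes, and the vitamin K cycle with protease receptors. The first list had 17 genes, of which 15 had peaks and 3 were tested outside the F10 window with enough counts. These gave log2 fold changes, open over closed, of -0.14 ± 0.16 for F12 (factor XII), 0.09 ± 0.17 for F13a1 (the factor XIII A chain, made by monocytes and macrophages) and 0.04 ± 0.16 for Fgb (fibrinogen beta). Among 6 anticoagulant and fibrinolysis loci tested, none passed and the median was 0.02, with -0.24 ± 0.16 for Pros1 (protein S) and -0.20 ± 0.19 for Thbd (thrombomodulin). Among 7 loci of the vitamin K cycle and protease receptors none passed either (median -0.08), with -0.19 ± 0.18 for F2r, the thrombin receptor PAR1, and 0.06 ± 0.17 for Ggcx, the carboxylase that matures factor X. None of these 16 loci had an unadjusted p under 0.05 in either direction. The thrombin gene F2 and factor V gene F5, too low to test, had 16.6 and 13.4 CPM in open and 11.9 and 7.80 CPM in closed control lines, pooled.

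Across the genome, no locus passed the test between open and closed control lines. A locus is the sum of peaks centred within 10 kb of the TSS of a protein-coding gene, and 10293 loci passed the filter on low counts. With edgeR's quasi-likelihood test and Benjamini-Hochberg adjustment, 0 loci were higher and 0 were lower at an adjusted p under 0.05 (0.00% of loci in each direction), and the smallest adjusted p was 1.00 to 2 decimals. At an unadjusted p under 0.05 there were 198 higher (1.92%) and 217 lower loci (2.11%), 4.03% of those tested. DESeq2 likewise called 0 higher and 0 lower, with 118 (1.15%) and 124 (1.20%) at an unadjusted p under 0.05, 2.35% in all. Within clones 1 to 18 (6 open and 5 closed lines) edgeR also called 0 of 10543 loci, with 303 and 315 at an unadjusted p under 0.05, and with the set of clones as a term it called 0 (197 and 220). The middle 90% of log2 fold changes ran from -0.26 to 0.29, around a median of -0.00 and with a median standard error of 0.17, so that small differences at single loci were not detectable at this depth.

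The loci with the smallest p are named as not passing. Vps33a, which encodes a subunit of the HOPS complex for fusion with lysosomes, had 8.38, 17.9 and 34.7 CPM in open lines (lowest, median and highest), against 33.9, 39.5 and 78.2 CPM in closed lines (log2 -0.83 ± 0.23, edgeR p = 4.83e-04, adjusted p = 1.00). The groups overlapped narrowly, and clone 4, with 8 counts, gave the highest closed value. In KO sister lines Vps33a had medians of 27.2 CPM in open and 24.7 CPM in closed clones, in the opposite order and with overlapping ranges.

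Below it, the loci lower in open lines were Lrriq3, which shares its single peak with Fpgt (log2 -0.70 ± 0.21), Wbp2 (-0.39 ± 0.12), Alcam, an adhesion molecule (-0.63 ± 0.20), and Wdhd1, a DNA replication factor gene that shares its 3 peaks with Socs4 (-0.54 ± 0.17). Wbp2 shares 8 of its 14 peaks with Unc13d, needed for granule exocytosis, and had medians of 121 CPM in open and 165 CPM in closed lines. In the KO sister lines the same 4 gave -0.28 ± 0.22, -0.04 ± 0.12, -0.21 ± 0.20 and 0.13 ± 0.20.

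Those higher in open lines were Gas2l2, a cytoskeletal linker gene (log2 0.64 ± 0.19), Nat8l, which makes N-acetylaspartate (0.83 ± 0.25), the RNA-binding protein gene Celf5 (0.69 ± 0.21), the LIM adaptor gene Ajuba (0.80 ± 0.24) and the receptor kinase gene Grk3 (0.71 ± 0.22). Gas2l2 had 29.3, 60.1 and 74.6 CPM in open lines, against 9.77, 36.5 and 58.3 CPM in closed lines. In KO sister lines its medians were level, 52.1 CPM in open and 52.3 CPM in closed clones (log2 0.01 ± 0.19).

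**Figure D3:**
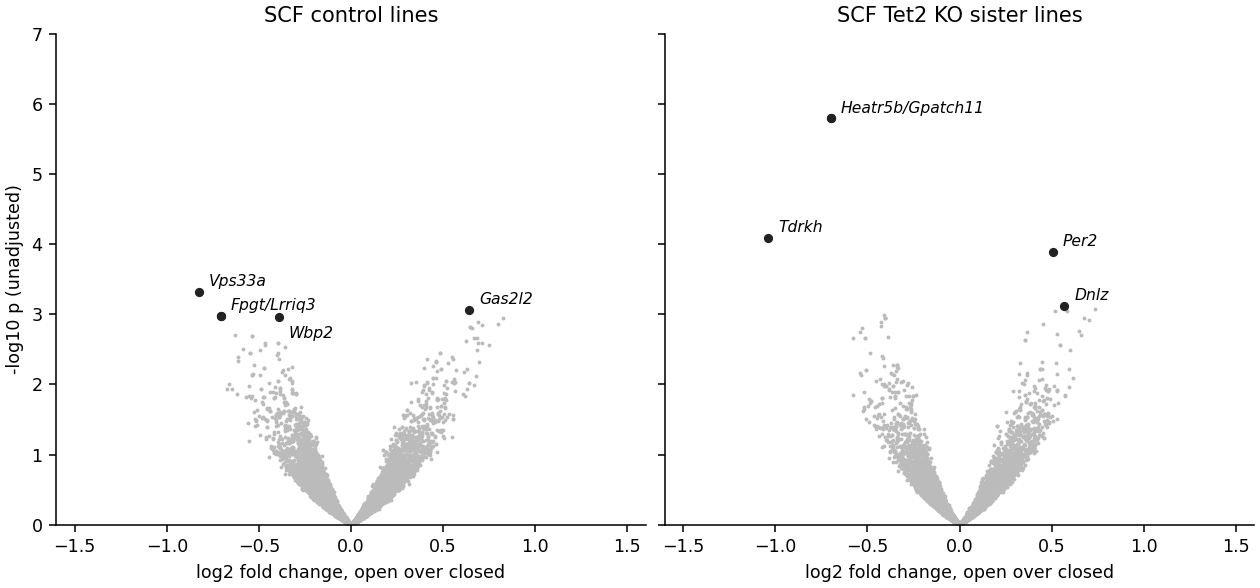
Unadjusted p on a -log10 scale (y axis) against the log2 fold change, open over closed (x axis), for 10293 loci in SCF control lines and 8122 loci in KO sister lines, 1 point per locus, with the 5 smallest p in black. No locus passed in control lines, and the shared peaks of Gpatch11 and Heatr5b (log2 -0.70) made up the 2 loci that passed in KO lines.

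Single peaks gave the same count. Of 7507 peaks tested, 0 were higher and 0 lower at an adjusted p at or under 0.01 with edgeR (0.00% each), with 144 (1.92%) and 128 (1.71%) at an unadjusted p under 0.05, 3.62% of peaks. DESeq2 called 0 and 0, with 72 (0.959%) and 79 (1.05%) at an unadjusted p under 0.05, 2.01% of peaks. The smallest p was that of the Vps33a promoter peak on chromosome 5 (123572891 to 123573191), at 4.19, 14.2 and 30.3 CPM in open lines and 32.7, 37.5 and 58.6 CPM in closed lines (log2 -0.96 ± 0.24, edgeR adjusted p = 0.748). Next among those lower in open lines came the promoter peak of Dpysl2 (log2 -0.62 ± 0.16, adjusted p = 0.748), then peaks nearest Pdzk1ip1, Pdrg1 and Smpd2 (-0.95, -0.98 and -0.79). Among the peaks of smallest p higher in open lines were promoter peaks of Cryl1, Map1lc3b, Rpl32 and Yeats4 (0.67, 0.62, 0.78 and 0.59). A looser filter, with a minimum count of 5, left 13146 peaks to test. Again 0 were higher and 0 lower at 0.01, but the smallest edgeR adjusted p was 0.0219, under the limit used for loci.

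Hardly any feature separated the groups fully. The values of open and closed lines did not overlap at 2 of the 7507 peaks, both lower in open lines (0.0266% of peaks), and at 1 of the 10293 loci, higher in open lines (0.00972%). The peaks were that of Vps33a and the promoter peak of Cln6, at 18.2 to 40.4 CPM in open and 40.6 to 54.3 CPM in closed lines (log2 -0.57 ± 0.20). The locus was Rflnb, at 37.7 to 49.1 CPM in open and 8.69 to 36.2 CPM in closed lines (0.51 ± 0.20, edgeR adjusted p = 1.00), where clones 4 and 27 had 1 count each. Cln6 and Rflnb are named because their values were seen not to overlap.

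In the KO sister lines of the same clones, 8122 loci were tested. With edgeR, 0 were higher (0.00%) and 2 lower (0.0246%) in KO lines of open clones at an adjusted p under 0.05, and DESeq2 called 0 and 0. At an unadjusted p under 0.05 edgeR gave 205 higher (2.52%) and 174 lower loci (2.14%), 4.67% in all, and DESeq2 100 (1.23%) and 104 (1.28%), 2.51% in all. The 2 loci are Gpatch11, which encodes a G-patch domain protein, and Heatr5b, a HEAT repeat protein gene, which start from 1 shared promoter on chromosome 17 and share their 4 peaks, so that they are 1 measurement.

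Gpatch11 and Heatr5b had 32.9, 82.7 and 123 CPM in KO lines of open clones, against 73.9, 125 and 197 CPM in KO lines of closed clones (log2 -0.70 ± 0.14, edgeR adjusted p = 0.00660). The ranges overlapped, with clone 14 highest among open clones and clone 4 lowest among closed ones. In control lines the medians were 72.4 CPM in open and 97.8 CPM in closed lines (log2 -0.36 ± 0.16, unadjusted p = 0.0240, adjusted p = 1.00). The call was lost without clone 5 (log2 -0.63, edgeR adjusted p = 0.0704), without clone 27 (-0.60, 0.286), without clone 28 (-0.59, 0.209), with DESeq2 (-0.73, 0.302) and within clones 1 to 18 (-0.45, 1.00). Nearly all counts came from the promoter peak, at 79.1 CPM in KO lines of open clones (206 counts) and 130.0 CPM in those of closed clones (313 counts), pooled. Its first 300 bases (mm10, plus strand) are shown because Gpatch11 and Heatr5b alone passed in the KO lines with the window used for loci. With a window of 1 kb, Card9 (log2 1.08, edgeR adjusted p = 0.0112) and Tdrkh (-1.19, 0.0112) passed there too.
Promoter peak of Gpatch11 and Heatr5b, chr17:78835398-78835697: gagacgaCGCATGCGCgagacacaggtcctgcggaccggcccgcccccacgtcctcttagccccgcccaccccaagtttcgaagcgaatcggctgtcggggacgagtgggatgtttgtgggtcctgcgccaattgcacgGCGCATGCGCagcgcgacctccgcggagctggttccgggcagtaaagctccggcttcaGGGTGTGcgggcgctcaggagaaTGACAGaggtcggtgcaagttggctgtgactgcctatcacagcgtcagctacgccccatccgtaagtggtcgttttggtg
It held 3 matches to the NRF1 motif GCGCATGCG, of which 2 overlap on opposite strands, and 1 each to the KLF and MEIS motifs. The NRF1 motif is in 1.75% of the RefSeq promoters.

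**Figure D4:**
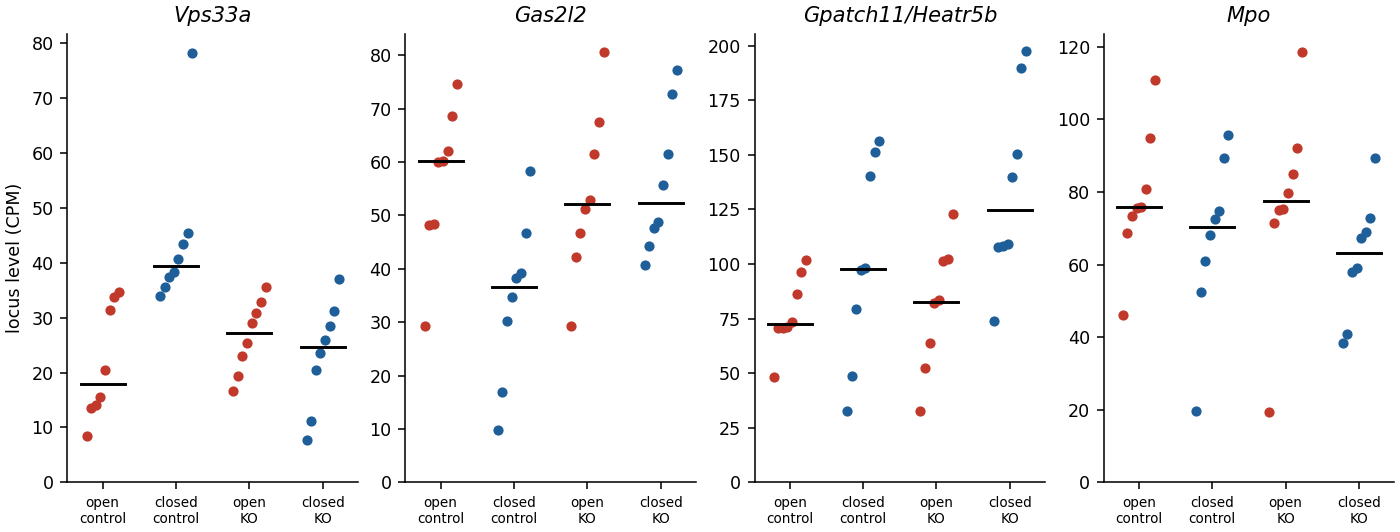
Level in CPM (y axis) of 4 loci in open and closed control lines and in open and closed KO sister lines (x axis), 1 point per line in order of its value, with the median as a bar. Vps33a had medians of 17.9 CPM in open and 39.5 CPM in closed control lines but 27.2 and 24.7 CPM in KO lines, and Mpo, a GMP marker, overlapped between groups throughout.

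Loci with small p in control lines were looked up in the KO lines of the same clones, which are separate libraries. Of 138 loci with an unadjusted p under 0.05 that were higher in open control lines and measured in KO lines, 72 (52.2%) were higher there too, with a median log2 fold change of 0.02. Of 186 that were lower, 106 (57.0%) were lower there too, with a median of -0.04. Over all 8122 loci the sign was the same at 53.0%, close to both shares. At 3 loci the KO lines of open and closed clones did not overlap (0.0369%): Atf5, Il4i1 and Nup62, which share their peaks and were named on seeing this, had 32.9 to 145 CPM in open and 148 to 185 CPM in closed clones (log2 -0.41 ± 0.12, edgeR adjusted p = 0.627).

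No progenitor or lineage gene of the lists passed between open and closed control lines, which is also the share over all loci (0.00%). Of 20 stem and early progenitor loci tested, 0 passed with edgeR (9 positive, 11 negative, median -0.03, against -0.00 over all loci), among them Kit, the SCF receptor (-0.12 ± 0.16), Gata2 (0.09 ± 0.14) and Meis1 (0.12 ± 0.18). Of 10 primary granule loci 0 passed (median 0.06), with 0.21 ± 0.15 for Mpo, myeloperoxidase, and -0.04 ± 0.13 for Elane, neutrophil elastase, whose window holds the neighbouring granule gene Prtn3. Of 8 later neutrophil loci 0 passed (6 positive, median 0.10), and 2 had an unadjusted p under 0.05, against 4.03% of all loci. These were Lrg1 (0.67 ± 0.21), a neutrophil granule glycoprotein gene, and the chemokine receptor gene Cxcr2 (0.49 ± 0.24). S100a8 did not pass the filter and had medians of 16.3 CPM in open and 21.5 CPM in closed lines.

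Lists of other lineages had no passing locus either. In 16 monocyte and macrophage loci 0 passed (median -0.02), with 0.28 ± 0.20 for Csf1r, the M-CSF receptor, and -0.13 ± 0.21 for Irf8, a factor of monocytes and dendritic cells. In 7 dendritic cell, 4 basophil, eosinophil and mast cell and 8 erythroid and megakaryocyte loci 0 passed (medians -0.02, -0.00 and -0.02). In 5 lymphoid loci 0 passed (2 positive, 3 negative, median -0.20), and 2 of them had an unadjusted p under 0.05, against 4.03% of all loci. These were Dntt (-0.41 ± 0.19, edgeR p = 0.0320) and Pax5 (-0.40 ± 0.20, edgeR p = 0.0479), genes of early lymphoid and B cells. In KO sister lines Dntt had the opposite sign (0.21 ± 0.19), and Pax5 was not tested. The summed level of the lymphoid list ran from 419 to 569 CPM in open and from 391 to 581 CPM in closed control lines. That of the monocyte and macrophage list ran from 1160 to 1474 and from 1229 to 1486 CPM.

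Regulators and pathway genes held a few loci with small unadjusted p and none that passed. Of 20 loci of cytokine receptors and STAT factors 0 passed with edgeR, and 1 had an unadjusted p under 0.05, against 4.03% of all loci. It was Csf2ra, a chain of the GM-CSF receptor (log2 -0.34 ± 0.12, edgeR p = 0.00600). Of 19 C/EBP, KLF and other myeloid factors 0 passed, with 0.13 ± 0.13 for Cebpe, -0.03 ± 0.16 for Klf4 and 0.47 ± 0.21 for Klf5. Of 14 DNA methylation loci 0 passed (median -0.05), with 0.10 ± 0.23 for Tet2 itself. The phagocyte effector (10 loci), NF-kB (13), interferon (10), AP-1 (20), HoxA and HoxB (5), cell cycle (24) and housekeeping (15) lists had 0 passing loci too, with medians from -0.11 for the cell cycle to 0.03 for phagocyte effectors. Over all 23 lists, an unadjusted p under 0.05 was reached by Lrg1, Cxcr2, Pax5, Dntt, Csf2ra, Klf5 and Ncf4, a subunit gene of the phagocyte oxidase (-0.30 ± 0.14), named for that reason. Of all 10293 loci 4.03% reached such a p, and nothing more is read from these names.

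The loci that the study links to its strongly responding clones, which it selected on these clones and which are not independent evidence, gave 0 passing loci of 5 (4 positive, median 0.09). They were Sox4 (-0.15 ± 0.13), Gata2, Meis1, Gfi1b (0.26 ± 0.19) and Runx3 (0.05 ± 0.14). Of its weakly responding list, which holds F10 itself, only Timp2 could be tested (0.26 ± 0.19). The study ranked SCF and GM-CSF clones together, by how far their functions changed after Tet2 loss. Its contrast is therefore not that of open and closed SCF lines. In KO sister lines none of the 23 lists had a passing locus, and medians were 0.15 for stem and early progenitor loci and 0.21 for primary granule loci, against -0.00 over all loci. Unadjusted p were under 0.05 there for Mpo (0.36 ± 0.17), Cebpe (0.35 ± 0.13), Csf1r (0.53 ± 0.24) and Gfi1b (0.40 ± 0.20), all higher in open clones and with edgeR adjusted p of 0.965 for Cebpe and 0.994 for the others. Other list loci reached such a p in both directions, and so did 4.67% of all loci in KO lines.

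The loci whose log2 CPM ran most like F10 over the 24 control lines were Ppara (Pearson's r = 0.89), Selenon (0.89), Lrp10 (0.86), Asic4 (0.85) and Fbxw2 (0.85), of 10401 loci. Those least like it were Ctdnep1 (-0.80), Erich5 (-0.78), Morc3 (-0.76), March6 (-0.75) and Gna12 (-0.75). These values are a description, and all points share the depth of their library. They leaned on the 2 shallowest lines: without clones 4 and 27, the 2 farthest from the median, r was 0.56, 0.45, 0.11, 0.36 and 0.06 for the first 5 and -0.54, -0.42, -0.25, -0.50 and -0.42 for the others. In the 24 KO lines r was 0.15, 0.32, 0.37, -0.03 and -0.02, and -0.03, -0.52, 0.29, 0.11 and -0.30.

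Whether clones whose control line had more F10 accessibility answered differently to Tet2 loss was asked in 3 ways. The KO effect at single loci, fitted with the clone as a block, differed between open and closed clones at 0 of 10536 loci (0.00% in each direction, edgeR, smallest adjusted p = 0.125), with 241 higher (2.29%) and 197 lower (1.87%) at an unadjusted p under 0.05, 4.16% in all. This fit was tried on simulated counts with the same dispersion at all loci and no clone effect. Changes were placed only among the loci with the most counts. There it recovered 16% of 2-fold and 1% of 1.5-fold changes. In the same setting, the comparison of open and closed control lines recovered 84% and 22%. Most differences in KO effect of such size were missed in that setting, and the 0 does not show that the responses were alike. DESeq2 called 0, with 80 (0.759%) and 67 (0.636%) at an unadjusted p under 0.05, 1.40% in all, and without the clone as a block edgeR also called 0. Taken alone, the KO effect passed at 30 higher and 3 lower of the 10536 loci in open clones, and at 26 and 1 of the same 10536 in closed clones. The perturbation score, a measure of how far the KO line stood from its control line over 10401 loci beyond counting noise, averaged 0.0254 ± 0.0174 in open and 0.0219 ± 0.0168 in closed clones (SD, n = 8 each, exact permutation p = 0.695). The difference depended on which clones were used: the means were 0.0266 in open and 0.0135 in closed clones within clones 1 to 18 (n = 6 and 5, exact permutation p = 0.258), and 0.0254 in both without clones that had a library under 200000 counts (n = 8 and 4, exact permutation p = 1.00). Clone 14 had the highest score of the open clones, 0.0643, and clone 27 of the closed clones, 0.0450.

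Factor motifs were compared as a motif deviation, the percent by which counts in distal peaks with a motif exceeded those of peaks of like GC content and accessibility. None of 21 motifs differed between open and closed control lines (smallest adjusted p = 0.545 over the 21, and 0 with an unadjusted p under 0.05). The deviation of the GATA motif AGATAA averaged 4.05 ± 3.74% in open and 4.42 ± 3.90% in closed lines (SD, n = 8 each, exact permutation p = 0.848), and that of the C/EBP motif TTGCNNAA 2.87 ± 3.53% and 1.68 ± 2.44% (exact p = 0.455). The HOX motif TGATTNAT was at 0.994 ± 3.13% in open and 4.15 ± 3.00% in closed lines (exact p = 0.0517). In KO sister lines it was also lower in open clones, with a difference of -2.05 percentage points (exact p = 0.0396, adjusted p = 0.832), the only motif with an unadjusted p under 0.05 there.

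**Figure D5:**
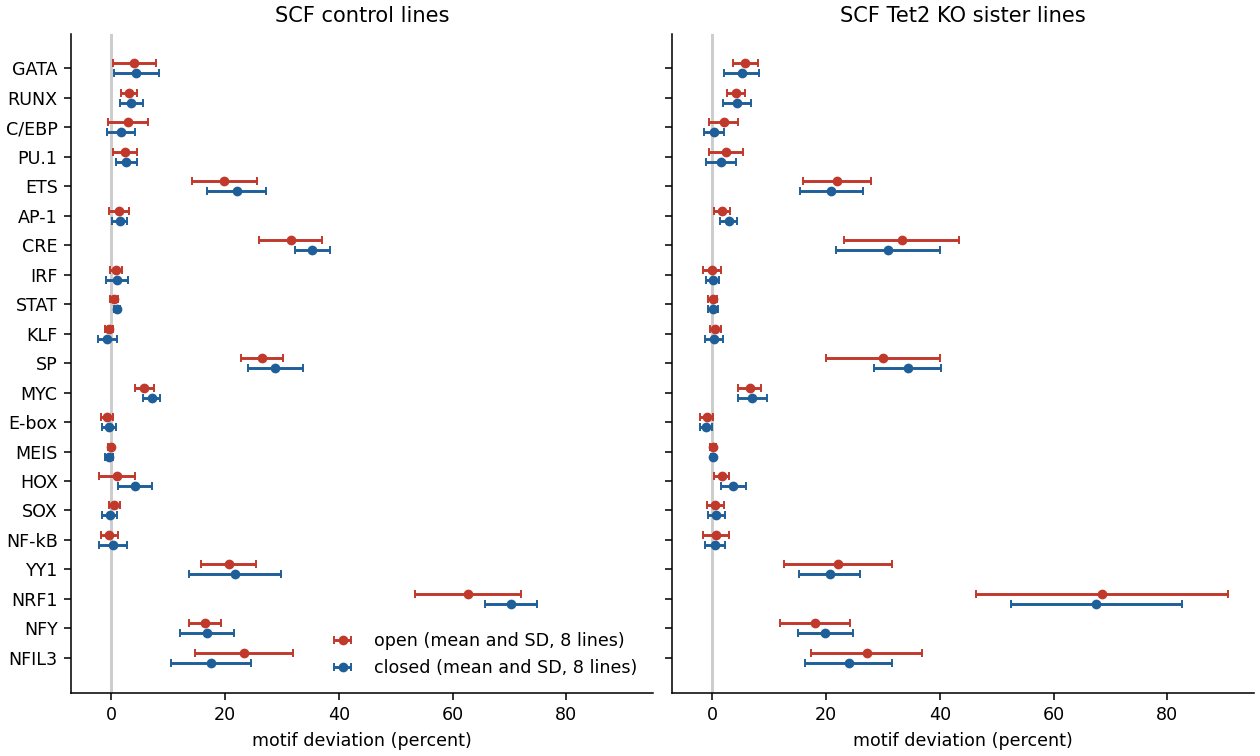
Motif deviation in percent (x axis) for 21 motifs (y axis) in SCF control lines and KO sister lines, as mean and SD of 8 open and 8 closed lines. The SD ranges of open and closed lines overlap for each motif in control lines, and the largest difference of means there was 7.61 percentage points, for NRF1.

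The distance between SCF and GM-CSF lines gave a last comparison, chosen after the data were seen. Of loci higher in the 4 GM-CSF control lines than in the 8 middle SCF control lines, 462 were measured in the open and closed control lines, and 56.5% of them were higher in open lines (median log2 0.03), against 49.4% of all loci (median -0.00). Of loci lower in GM-CSF, 668 were measured and 43.3% were higher in open lines (median -0.03). In KO sister lines these shares were 55.5% and 50.3%, against 49.4% of all loci. These shares carry no test, and the medians are small beside the standard error of 1 locus.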

How the data were processed

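Bulk ATAC-seq of 56 libraries (28 clones, a control and a Tet2 KO line each) was used. The authors aligned reads to mm10 with Bowtie2, used SAMtools and Picard, and deposited raw counts per library at 297361 peaks; versions, and whether duplicates were removed, are not stated. Control totals ranged from 102302 to 692383 counts over the 16 lines compared, and 1 count was worth 1.44 to 9.77 CPM there.

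Peaks were summed within 10 kb of protein-coding TSS into 18691 loci. The 11 loci and 190 peaks in the 0.5 Mb around F10 were left out of tests. Groups came from ranking F10 CPM, and the members and gene lists were chosen with earlier results of these data known. Fits used edgeR 4.0.16 quasi-likelihood tests with TMM scaling, filterByExpr (minimum count 10) and Benjamini-Hochberg adjustment (under 0.05 for loci, at or under 0.01 for peaks) in R 4.3.3, with DESeq2 1.42.0 as an alternative. Single values were tested by exact permutation of 8 against 8 lines, and correlations with 100000 permutations (Python 3.11.15, scipy 1.17.1). The KO effect was fitted with the clone as a block, since both lines of a pair come from 1 clone. The perturbation score divides the counts at random into a pair of parts, takes in each the median-centred KO minus control log2 difference, multiplies both differences locus by locus and averages, over loci and over 10 divisions (prior count 2). Tests were checked on simulated data. Alternatives were scaling, filter, covariates, window, ranking, group size and leaving out libraries.

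Named loci were those passing or, with under 5 in a direction, the 5 of smallest p, the 5 most and least like F10, list members passing, fixed genes (F10, F7, Proz, Sox4, Gata2, Meis1, Gfi1b, Runx3, S100a8, Timp2, Mpo, Cebpe, Csf1r, Irf8, Klf4) and the 5 peaks of smallest p per direction. Others are examples from lists. One peak that this rule names is not reported here.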

Additional observations from a re-analysis of the deposited data

Results flagged for a closer look

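In 23 of 282 groups of 8 lines, 1 line lay far from the other 7 by Dixon's ratio, which chance alone gives in about 1 in 20 groups. Among open control lines these were Asic4 in clone 5 (67.8 CPM, next 41.9), Sox4 in clone 26 (130.0, next 106) and S100a8 in clone 14 (42.6, next 24.2). Among closed control lines, 2 locus values came from the 2 shallowest libraries: Ppara in clone 27 (0 CPM, next 19.6) and Vps33a in clone 4 (78.2 CPM, next 45.4). The same libraries gave the HOX motif deviation of clone 4 (11.0%, next 4.77%) and the NFY motif deviation of clone 27 (6.36%, next 16.1%). The other closed control values were Wbp2 in clone 3 (112 CPM, next 156), the IRF motif deviation of clone 3 (-3.35%, next 0.564%) and the chromosome 1 share of clone 13 (6.99%, next 6.14%).

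Among KO lines of open clones, clone 9 stood apart for the peaks shared by Atf5, Il4i1 and Nup62 (32.9 CPM, next 96.1), for Meis1 (65.7 CPM, next 48.0) and for the NF-kB motif deviation (5.82%, next 1.55%), and clone 29 for Celf5 (82.0 CPM, next 51.7). Among KO lines of closed clones, clone 3 stood apart for Cebpe (30.8 CPM, next 86.2), Gata2 (30.8 CPM, next 59.1) and the promoter share (35.8%, next 47.1%). The others there were March6 in clone 12 (102 CPM, next 83.9), S100a8 in clone 4 (44.3 CPM, next 24.4) and the C/EBP motif deviation of clone 27 (4.26%, next 0.640%). The perturbation score of clone 14 was 0.0643 among open clones, next 0.0319.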

How the results depend on the processing

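The F10 difference between KO sister lines was -8.06 to -0.52 CPM when each clone was left out in turn and -9.12 CPM with the top and bottom 12 clones, and it turned to 5.03 CPM (exact permutation p = 0.189) when peaks within 1 kb were used for ranking and value. In control lines, the count of loci passing stayed at 0 without each clone in turn and was 5 when lines were ranked by TMM-scaled CPM: Mroh2a (log2 1.33), Ckap4 (1.15) and Nat8l (1.07) higher, and Ash1l and Dap3, which share peaks (-0.76), lower. In KO sister lines, the 2 loci became 0 with DESeq2, in clones 1 to 18, with the top and bottom 12 clones, with log2 F10 CPM as covariate, with a window of 50 kb and with ranking by peaks within 1 kb. The count was 4 with a window of 1 kb, 1 with ranking by TMM-scaled CPM (Garem1, 0.79), and 0 to 3 when each clone was left out in turn. The causes were not tested.

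Ranking by peaks within 1 kb turned the direction of Gas2l2 (-0.0737), Nat8l (-0.30), Lrriq3 (0.0835), Alcam (0.0580), and Gpatch11 and Heatr5b in KO lines (0.22). Gpatch11 passed in 20 of 30 alternatives, with adjusted p from 7.56e-04 to 1.00. Without the replicate block (the pairing of the KO and control lines of a clone), 0 loci differed in KO effect, the same count as with it. Depth limits the F10 ranking: 1 count was worth up to 9.77 CPM.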
